A study of Homo sapiens with 24 samples.

Results

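Fatty acid synthesis and desaturation was followed through the transcripts of 9 genes in human embryonic stem cells: ACLY, ACSS2, ME1, ACACA, FASN, ELOVL6, SCD, FADS2 and SREBF1. The members were all array probe sets annotated to exactly 1 of 10 listed gene symbols, which gave 22 probe sets of the 41097 that name a single gene, and 9 of 19775 genes. The listed FADS1 has no probe set of its own. All 22 probe sets passed the filter on dim signal (log2 over 5, 3 or more arrays out of 12) in both parts of the study and were tested there. They are not 22 independent measurements, since most of the genes have several probe sets, although these did not always run together.

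The study hybridised total RNA to 24 Affymetrix U133 Plus 2.0 arrays, 3 for each of 8 groups. The inhibitor part has 12 arrays, with H1, H9 and HSF1 cells each measured once under 4 conditions. These are feeder-supported (FS) cells with 250 nM AZD3965, an inhibitor of the monocarboxylate transporter MCT1, FS cells with the vehicle DMSO, feeder-free (FF) cells with AZD3965, and FF cells with DMSO, all treated for 5 days. In the medium part, 12 arrays hold 3 biological replicates each of feeder-free HSF1 and H9 cells in medium conditioned by mouse embryonic fibroblasts (CM) or in unconditioned medium (UM). The sample labels give 5 days in CM and the series' design text gives 24 hours. No genetic change is labelled in any group. Feeders are mouse embryonic fibroblasts, and the sources used here do not say whether they were removed before RNA was isolated. Values are log2 intensities, those of the 3 lines stand in the order H1, H9, HSF1, and a difference of 1 is a 2-fold change. Such values compare a probe set between arrays, not 1 gene with another.

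Cells build fatty acids from acetyl-CoA in the cytosol. ACLY makes that acetyl-CoA from citrate and ACSS2 makes it from acetate, while ME1 supplies NADPH as it turns malate into pyruvate. ACACA carboxylates acetyl-CoA to malonyl-CoA, the committed step, and FASN joins these units into palmitate. ELOVL6 lengthens palmitate towards stearate, SCD places the first double bond that yields oleate and palmitoleate, and FADS2 desaturates polyunsaturated chains. SREBF1 encodes SREBP1, a membrane-bound factor that is cut free when sterols are low and that activates many of these genes. Proliferating cells, pluripotent cells among them, use such lipids for new membranes.

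Promoter sequence was read for the genes from RefSeq windows of 300 bases on GRCh38.p14, running from 250 bases before to 50 after a transcription start. Of the 9 genes, 8 had an entry, with 13 windows among them. FASN had none. The windows of SCD and ACLY are shown because these genes, 1 at the entry of the pathway and 1 at desaturation, moved together over the arrays and both carry the CCAAT box, the letters read by NF-Y, a partner of SREBP. Capitals mark the CCAAT box in either orientation.
SCD, chr10:100346983-100347282, plus strand: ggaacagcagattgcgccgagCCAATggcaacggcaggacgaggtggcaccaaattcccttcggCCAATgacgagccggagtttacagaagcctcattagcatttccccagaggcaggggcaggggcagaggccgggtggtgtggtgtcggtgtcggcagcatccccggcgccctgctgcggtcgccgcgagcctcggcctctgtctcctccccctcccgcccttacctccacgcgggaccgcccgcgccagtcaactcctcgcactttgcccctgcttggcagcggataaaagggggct
ACLY, chr17:41918973-41919272, minus strand: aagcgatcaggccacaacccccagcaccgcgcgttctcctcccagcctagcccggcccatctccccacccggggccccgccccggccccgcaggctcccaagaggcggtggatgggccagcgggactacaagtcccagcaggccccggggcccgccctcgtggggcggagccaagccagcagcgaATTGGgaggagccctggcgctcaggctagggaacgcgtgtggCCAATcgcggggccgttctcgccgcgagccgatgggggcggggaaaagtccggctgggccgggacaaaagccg
The search covered both strands and the letters CCAAT (the NF-Y box), GGGCGG (the GC box), CACGTG (the E-box) and TCACNCCAC (a sterol regulatory element core). CCAAT stood in 7 of the 13 windows (53.8%) and in 5 of the 8 genes, and 34.6% of all 35116 promoter windows hold it. GGGCGG stood in 11 of the 13 windows (84.6%) and in all 8 genes, against 45% of all windows. CACGTG and TCACNCCAC stood in 0 of the 13, and 7.26% and 1.13% of all windows hold them. The windows of ACLY overlap and share their CCAAT boxes, and those of FADS2 overlap too. Windows are thus not independent, and no background per gene was made.

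Some arrays stood apart. The 2 FS arrays of HSF1 had an interquartile range of log2 values of 2.45, against 2.66 to 3.30 on the other 22, and their median correlation with the other arrays was 0.885 and 0.900, against 0.960 to 0.988. The mean of 11 measured pluripotency markers was 11.7 to 12.4 on the 6 FS arrays and 12.5 to 12.7 on the 6 FF arrays of the inhibitor part. In FS cells 6 of the 11 were lower and 0 higher with DMSO, and 8 and 0 under the inhibitor. The mean of 30 fibroblast markers was 8.21 to 9.05 on the FS arrays and 7.19 to 8.10 on the FF arrays. In FS cells 14 of the 30 were higher and 0 lower with DMSO, and 11 and 3 under the inhibitor. Of all 17218 genes tested, 24.1% were lower and 15.2% higher in FS cells with DMSO. Under the inhibitor 26.9% of all probe sets were lower and 19.3% higher. On a linear scale the summed fibroblast markers reached 34606 to 60584 on FS arrays and 11884 to 26717 on FF arrays. The 3' minus 5' difference of ACTB, a measure of RNA quality, was -0.31 to 1.19 on FS arrays and 0.47 to 1.17 on FF arrays. The part of these markers in the differences between FS and FF cells was not tested. In bulk RNA, fewer cells of a type and less RNA per cell cannot be told apart.

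With DMSO, 15 of the 22 probe sets were lower in FS cells than in FF cells and 2 were higher, by limma with Benjamini-Hochberg adjustment over 33411 probe sets at a threshold of 0.05. Of all probe sets tested, 39.0% were called, 24.0% lower and 15.0% higher. The median difference over the 22 was -1.22, against -0.14 over all tested. Represented by its brightest probe set, each of the 9 genes read lower in FS cells in all 3 lines, and 8 of the 9 passed the test. The exception was ME1. Of all 17218 genes tested with 1 probe set each, 24.1% were lower and 15.2% higher. The share of all genes that read lower in all 3 lines was not counted.

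At the entry of the pathway, ACLY (201128_s_at) read 12.32, 12.29 and 11.64 in FS cells and 12.94, 13.68 and 13.00 in FF cells with DMSO. The groups did not overlap, and ACLY was 2.18-fold lower in FS cells (log2 difference -1.12 ± 0.20, SE; adjusted p = 0.00488). Its other probe sets also fell, with differences of -1.52 and -1.90 (adjusted p = 0.00327 and 0.00245). ACSS2 (234312_s_at) read 7.12, 7.29 and 6.95 in FS cells, against 7.60, 10.35 and 7.72 in FF cells. The FF array of H9 lay far above the other 2, and the difference of -1.43 ± 0.51 passed narrowly (adjusted p = 0.045). Without that array it was -0.52 and did not pass (adjusted p = 0.132). The best probe set of ME1 (204059_s_at) read 8.88, 8.70 and 7.04 in FS cells and 9.15, 9.47 and 9.29 in FF cells. HSF1 on feeders was the low array, and the difference of -1.10 ± 0.44 missed the threshold (adjusted p = 0.0614).

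The committed step and the synthase both fell. ACACA (212186_at) read 9.79, 9.39 and 8.91 in FS cells, against 10.66, 11.15 and 10.52 in FF cells. Every FS array lay under every FF array, and the signal was 2.66-fold lower (-1.41 ± 0.25, adjusted p = 0.00439). FASN (212218_s_at) read 9.24, 8.86 and 7.92 in FS cells and 10.61, 12.12 and 9.73 in FF cells. This was the steepest fall among the 9 brightest probe sets, 4.43-fold (-2.15 ± 0.32, adjusted p = 0.00205), and the H9 pair differed most.

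Elongation and desaturation followed the same direction. ELOVL6 (204256_at) had 10.96, 11.18 and 10.74 in FS cells, against 11.83, 12.59 and 12.20 in FF cells, a 2.37-fold lower signal (-1.24 ± 0.20, adjusted p = 0.0029). Its other probe sets also fell, with differences of -2.00 and -2.30 (adjusted p = 0.00159 and 0.000734). SCD (200832_s_at) had 12.32, 12.23 and 11.52 in FS cells and 13.18, 13.52 and 12.97 in FF cells, with no overlap (2.30-fold lower, -1.20 ± 0.15, adjusted p = 0.00111). The other 3 SCD probe sets were lower too, with differences of -1.78, -1.38 and -1.46 (adjusted p = 0.00405, 0.0189 and 0.00981). FADS2 (202218_s_at) was even across the lines on feeders, at 9.07, 9.08 and 9.01, against 9.90, 10.43 and 9.53 in FF cells (1.86-fold lower, -0.90 ± 0.24, adjusted p = 0.0181). SREBF1 (202308_at), the regulator, read 7.36, 7.37 and 7.53 in FS cells and 8.66, 8.39 and 8.07 in FF cells. The groups did not overlap here either, and SREBF1 was 1.94-fold lower (-0.95 ± 0.23, adjusted p = 0.013).

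**Figure D1:**
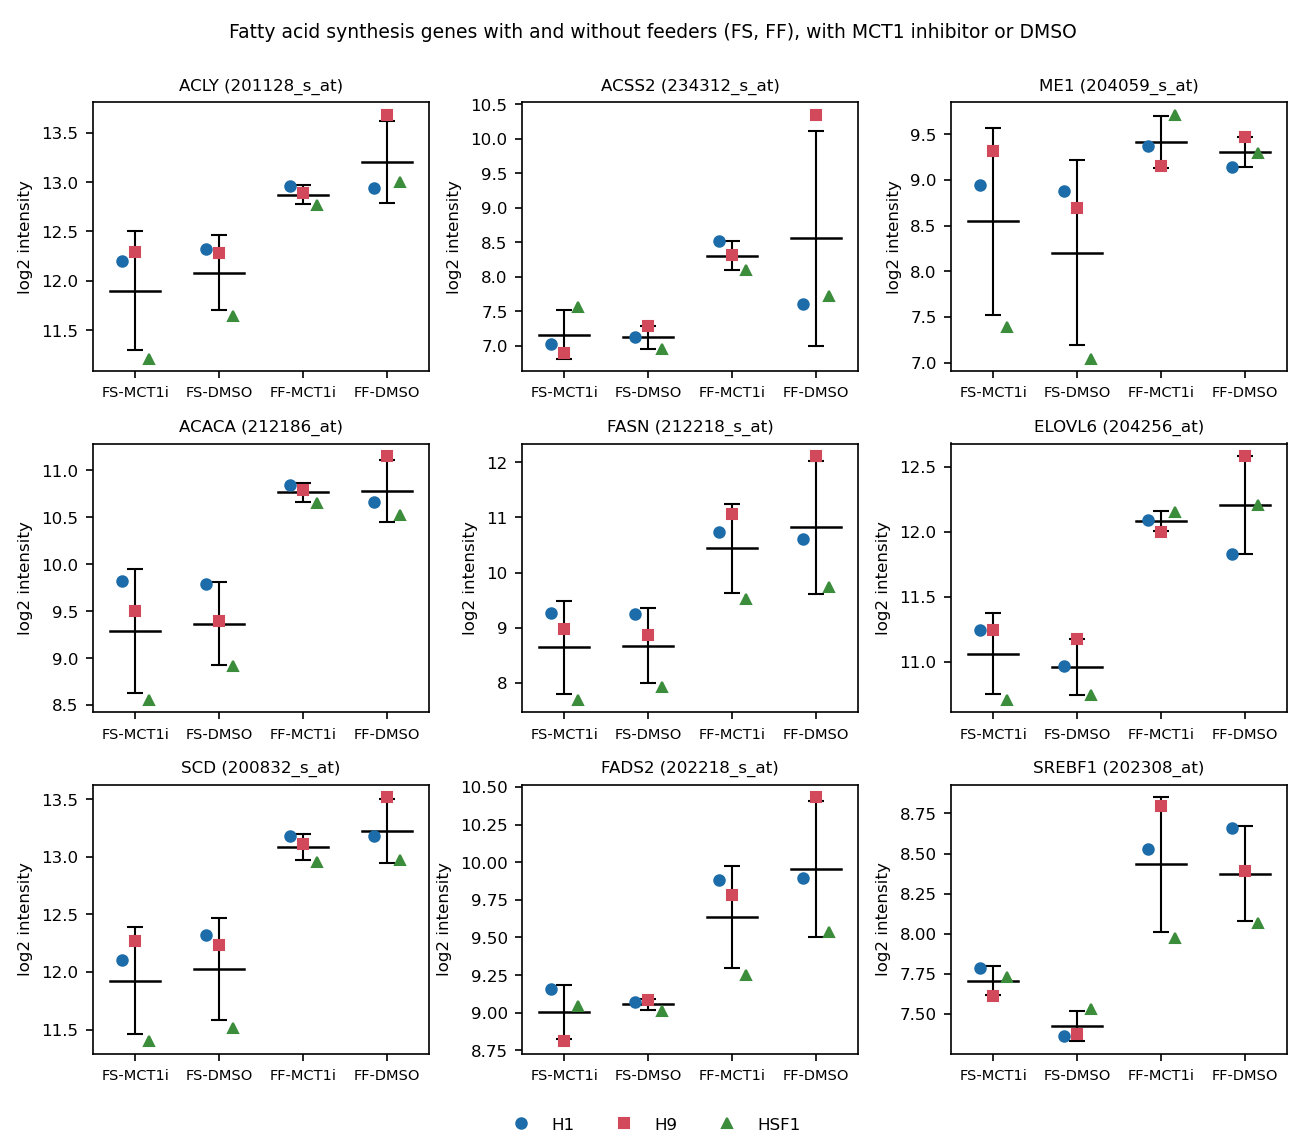
Log2 intensity (y axis, scaled per panel) of the brightest probe set of each of the 9 genes in FS and FF cells with MCT1 inhibitor or DMSO (x axis). Points are single arrays coloured by line, horizontal lines are means and bars are SD (n = 3). With DMSO the FS points of each gene lie under its FF points, and the FF-DMSO array of H9 stands high for ACSS2 (10.35) and FASN (12.12).

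The size of the fall was set out by line, as a description. Over the 22 probe sets the median difference with DMSO was -0.86 in H1, -1.40 in H9 and -1.17 in HSF1. Over all probe sets naming a single gene it was -0.02, -0.05 and 0.10. The FF-DMSO array of H9 was above every other FF array of the inhibitor part in 17 of the 22 probe sets. The same count was not made over all probe sets, so it does not show that the array is high for these genes in particular. Without that array, 13 of the 22 were lower and 2 higher, and the calls of ACSS2 and FADS2 (adjusted p = 0.0643) were lost. The count was 11 without H1, 6 without H9 and 18 without HSF1, where a line left out removes 4 arrays. The shares of all probe sets called in these fits are not given here, so the counts are not set against the whole array. ACSS2 passed in none of these 3 (adjusted p = 0.0817 without H1, 0.152 without H9 and 0.054 without HSF1), and FADS2 (0.106) and SREBF1 (0.133) did not pass without H1. FASN (-1.59, adjusted p = 0.0386) and SCD (200832_s_at, -1.16, adjusted p = 0.0374) still passed without H9, while ACLY, ACACA, ELOVL6 (204256_at), FADS2 and SREBF1 had adjusted p of 0.0517 to 0.136. With the ACTB difference as a covariate, 5 of the 22 passed and 594 of all 33411. On quantile-normalised values 12 passed, with ACSS2, FADS2 202218_s_at, SREBF1 202308_at, FASN 217006_x_at and SCD 211162_x_at no longer among them, and the median over all probe sets moved to 0.01.

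Probe sets of the same gene did not always run together. ME1 (211204_at) read 9.48, 9.9953 and 11.04 in FS cells, against 5.81, 5.76 and 5.32 in FF cells with DMSO. It was 23.4-fold higher on feeders (4.55 ± 0.38, adjusted p = 6.89e-05), the largest difference of all 22, while the other probe sets of ME1 read -1.10 and -1.15 (adjusted p = 0.0614 and 0.054). Over the 24 arrays 211204_at ran against them, with r = -0.59 and -0.48, and the other pair agreed at r = 0.95, given as descriptions. Outside FS cells 211204_at stayed between 5.09 and 5.81 on all 18 arrays. FASN showed a smaller split: 217006_x_at read 6.26, 6.59 and 7.08 in FS cells and 5.71, 6.07 and 6.02 in FF cells, 1.64-fold higher (0.71 ± 0.22, adjusted p = 0.0309), and it ran against 212218_s_at at r = -0.73. Its call was lost without H1 (adjusted p = 0.118) and without H9 (adjusted p = 0.0792). The second probe sets of ACACA (214358_at, -0.10), FADS2 (243953_at, -0.44) and SREBF1 (1558875_at, 0.39) did not pass (adjusted p = 0.73, 0.191 and 0.15). The fibroblast marker sums given above are also higher on FS than on FF arrays. On the FS arrays with DMSO they were 56953, 38232 and 34606 in H1, H9 and HSF1. The mean of the pluripotency markers on these arrays was 12.37, 12.37 and 11.98. The part of either marker set in the reading of 211204_at was not tested. With all probe sets of a gene averaged, ME1 was higher in FS cells, at 0.77 with DMSO (adjusted p = 0.0245) and 0.96 under the inhibitor (adjusted p = 0.0108), the opposite sign to its brightest probe set. On that average FASN was -0.72 with DMSO (adjusted p = 0.0319) and -0.52 under the inhibitor (adjusted p = 0.078), and SREBF1 was -0.28 and -0.15 (adjusted p = 0.237 and 0.512).

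**Figure D2:**
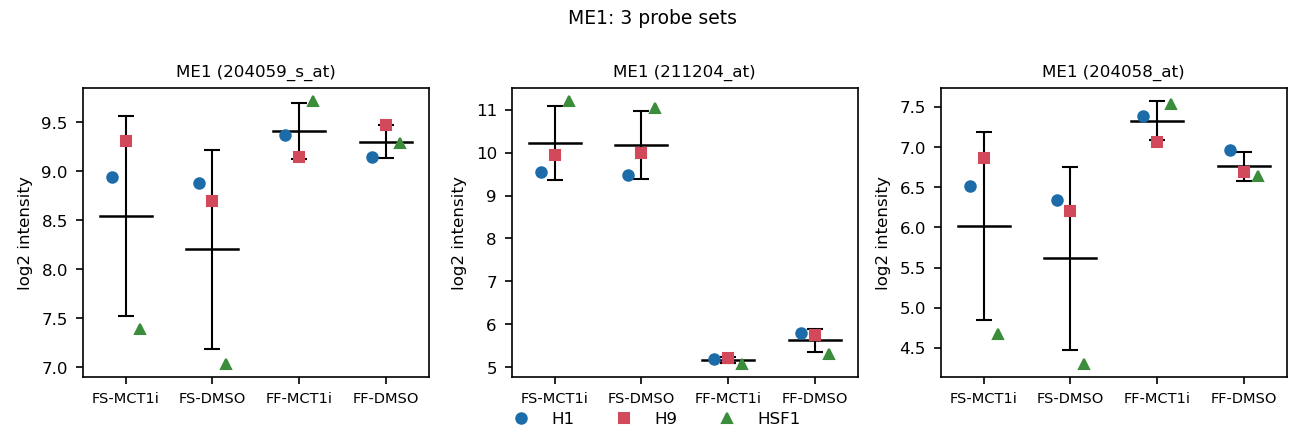
Log2 intensity (y axis, scaled per panel) of the 3 probe sets of ME1 in the 4 groups of the inhibitor part (x axis), with arrays as points by line, means as lines and SD as bars (n = 3). 204059_s_at and 204058_at are lowest in HSF1 on feeders, whereas 211204_at lies at 9.48 to 11.19 in FS cells and at 5.09 to 5.81 in FF cells.

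**Figure D3:**
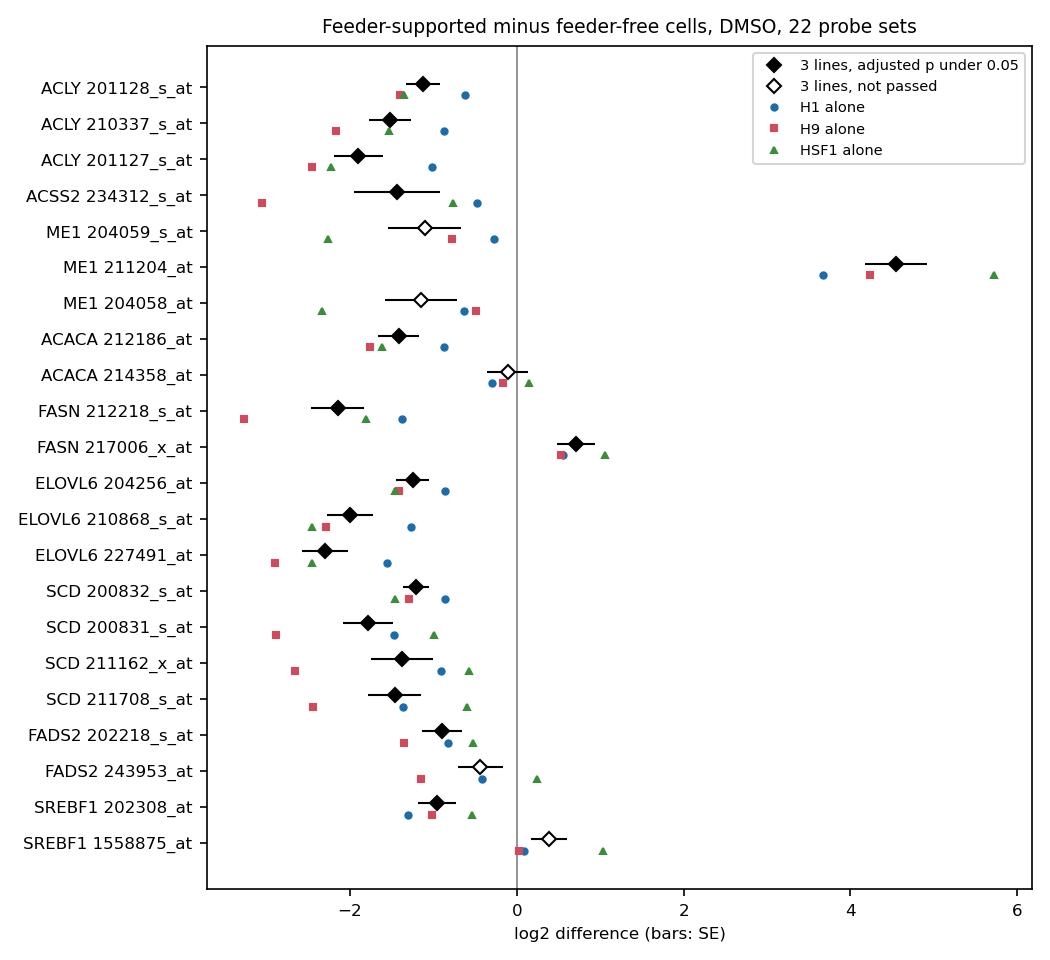
Log2 difference, FS minus FF with DMSO (x axis), of each of the 22 probe sets (y axis). Diamonds are the fitted difference over 3 lines with its SE, filled where the adjusted p is under 0.05, and small points are single lines. Of the 22, 15 filled diamonds lie left of 0 and 2 right of it, ME1 211204_at the farthest at 4.55.

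The culture systems were also compared under the MCT1 inhibitor, on other arrays. Of the 22 probe sets, 13 were lower and 2 higher in FS cells, against 26.9% lower and 19.3% higher of all tested (46.2% in either direction). The median difference was -0.99 over the members and -0.13 over all. FASN read 9.27, 8.98 and 7.68 in FS cells and 10.74, 11.06 and 9.52 in FF cells with the inhibitor (3.47-fold lower, -1.80 ± 0.32, adjusted p = 0.00351). ACACA read 9.82, 9.50 and 8.55 in FS cells, against 10.85, 10.79 and 10.65 in FF cells (2.78-fold lower, -1.47 ± 0.25, adjusted p = 0.00281). No FS array reached an FF array for either gene, and the FF arrays of ACACA lay close together. SCD (200832_s_at) read 12.10, 12.27 and 11.40 in FS cells and 13.18, 13.11 and 12.96 in FF cells (2.23-fold lower, -1.16 ± 0.15, adjusted p = 0.00105). ACLY (201128_s_at) was 1.96-fold lower in FS cells (-0.97 ± 0.20, adjusted p = 0.00668) and ELOVL6 (204256_at) 2.02-fold lower (-1.02 ± 0.20, adjusted p = 0.00523). FADS2 (202218_s_at) differed by -0.63 (adjusted p = 0.0475) and SREBF1 (202308_at) by -0.73 (adjusted p = 0.0262). Both lost the call on quantile-normalised values (-0.12, adjusted p = 0.779 for FADS2, and -0.34, adjusted p = 0.301 for SREBF1), without H1 (0.233 and 0.151), without H9 (0.241 and 0.214), with the ACTB covariate (0.175 and 0.0738) and with no line block (0.0913 and 0.0537).

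The remaining members divided under the inhibitor. ACSS2 read 7.02, 6.90 and 7.57 in FS cells, against 8.52, 8.31 and 8.09 in FF cells. The groups were apart, yet the difference of -1.14 ± 0.51 gave an adjusted p of 0.0812. It passed without the FF-DMSO array of H9, which enters through the shared spread and the line block (-1.14, adjusted p = 0.008), without H9 (-1.01, adjusted p = 0.0446) and without the FS arrays of HSF1 (-1.61, adjusted p = 0.0472). ME1 (204059_s_at) read 8.94, 9.31 and 7.39 in FS cells and 9.37, 9.15 and 9.71 in FF cells, which overlapped through H9 (-0.86 ± 0.44, adjusted p = 0.114). ME1 211204_at was 33.4-fold higher (5.06 ± 0.38, adjusted p = 2.37e-05) and 204058_at lower (-1.31 ± 0.44, adjusted p = 0.0314). Among the SCD probe sets, 211162_x_at and 211708_s_at had differences of -0.55 and -0.75 (adjusted p = 0.224 and 0.0711). SCD 211708_s_at passed without the FF-DMSO array of H9 (adjusted p = 0.0305), without HSF1 (0.0444) and without the FS arrays of HSF1 (0.0203), and ACACA 214358_at without HSF1 (-0.92, adjusted p = 0.00544) and without its FS arrays (-0.89, adjusted p = 0.00168). The count was 8 without H1, 14 without H9 and 15 without HSF1, 9 on quantile-normalised values and 7 with the ACTB covariate. These counts too are given without the shares of all probe sets called.

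No member passed the test for the MCT1 inhibitor. Against DMSO, 0 of the 22 probe sets passed in FS cells, 0 in FF cells and 0 in the mean of both, where 0.00299%, 0.602% and 0.287% of all probe sets passed. At an unadjusted p under 0.05, 0 passed in FS cells, 2 in FF cells and 0 in the mean. Of all 33411 probe sets tested, 537, 2514 and 2556 did. In FS cells the FASN difference was -0.03 ± 0.32, with an interval of 1.96 SE from -0.65 to 0.59, and that of SCD (200832_s_at) was -0.10 ± 0.15 (-0.40 to 0.21). In FF cells FASN differed by -0.38 ± 0.32 (-0.9995 to 0.24), ACSS2 by -0.25 ± 0.51 (-1.25 to 0.76) and SREBF1 by 0.06 ± 0.23 (-0.39 to 0.51). The test does not show that levels were equal. By line in FF cells, as a description, 19 of the 22 probe sets were lower with inhibitor than with DMSO in H9 (median -0.70), 10 in H1 (median 0.05) and 17 in HSF1 (median -0.13). Over all probe sets naming a single gene the median was -0.03 in H9, -0.03 in H1 and -0.01 in HSF1. The share of all probe sets lower in each line was not counted. The H9 pair contains the high FF-DMSO array named above.

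Those 2 with an unadjusted p under 0.05 in FF cells were ACACA 214358_at and SCD 211708_s_at, named after their values were seen. ACACA 214358_at read 8.25, 8.07 and 7.64 with inhibitor, against 7.51, 7.51 and 7.20 with DMSO (0.58 ± 0.25, adjusted p = 0.595). SCD 211708_s_at read 8.13, 8.03 and 7.58 with inhibitor and 8.35, 9.75 and 7.90 with DMSO (-0.76 ± 0.32, adjusted p = 0.593). Without the FS arrays of HSF1 the first passed at the same difference (adjusted p = 0.0176), and in the second the H9 pair differed most. For a difference in inhibitor effect between culture systems, 0 of the 22 passed and 0 of all 33411. At an unadjusted p under 0.05, 0 of the 22 and 710 of all 33411 did. For FASN the interaction was 0.35 ± 0.45 (-0.53 to 1.23) and for SCD (200832_s_at) 0.05 ± 0.22 (-0.38 to 0.47). With array weights, whose estimate did not converge, 3 passed in FS cells, 2 in FF cells and 6 in the mean. The shares of all probe sets called with these weights are not given here, so these counts are not set against the whole array.

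Conditioned medium lowered ME1, ELOVL6 and SCD in HSF1, and lowered ME1 and raised ACSS2 in H9. In HSF1, 7 of the 22 probe sets were lower in CM than in UM and 0 higher, against 7.83% lower, 5.70% higher and 13.5% in either direction of the 31925 tested. All 7 belong to ME1, ELOVL6 and SCD. ME1 (204059_s_at) had 8.29, 8.23 and 8.31 in CM, against 9.12, 9.01 and 9.09 in UM, in replicates 1 to 3 (1.74-fold lower, -0.80 ± 0.09, adjusted p = 4.81e-05). Its probe set 204058_at had 5.42, 5.35 and 5.11 in CM and 6.45, 6.47 and 6.48 in UM (2.25-fold lower, -1.17 ± 0.13, adjusted p = 2.75e-05). Both pairs of groups lay apart by far more than their spread. ELOVL6 (204256_at) had 11.34, 11.37 and 11.42 in CM, against 11.89, 11.83 and 11.89 in UM (1.41-fold lower, -0.49 ± 0.06, adjusted p = 0.000127), and 210868_s_at was 1.60-fold lower (-0.67 ± 0.10, adjusted p = 0.000347).

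SCD in HSF1 depended on the probe set. The dimmer ones fell: 211708_s_at had 6.76, 7.03 and 6.76 in CM and 7.65, 7.54 and 7.59 in UM (1.68-fold lower, -0.74 ± 0.11, adjusted p = 0.000304), 211162_x_at differed by -0.58 (adjusted p = 0.000946) and 200831_s_at by -0.37 (adjusted p = 0.00607). The brightest, 200832_s_at, had 12.64, 12.70 and 12.60 in CM, against 12.89, 12.77 and 12.81 in UM, which lay apart without passing (-0.18 ± 0.06, adjusted p = 0.0609). FASN had 10.01, 10.09 and 10.11 in CM and 9.78, 9.92 and 9.89 in UM, on the upper side and not passing (0.21 ± 0.09, adjusted p = 0.134). ACSS2 (0.21 ± 0.07, adjusted p = 0.0806) and ACACA (0.15 ± 0.06, adjusted p = 0.151) did not pass either. ACLY (201128_s_at) differed by -0.02 ± 0.06 and FADS2 (202218_s_at) by -0.02 ± 0.09, and SREBF1 (202308_at) by -0.19 ± 0.10 (adjusted p = 0.858, 0.902 and 0.255). The remaining probe sets did not pass: ACLY at -0.15 and -0.01, ACACA 214358_at at -0.07, FASN 217006_x_at at 0.21, ELOVL6 227491_at at -0.17, FADS2 243953_at at 0.19 and SREBF1 1558875_at at 0.12. FASN passed under 4 of 21 settings, with adjusted p of 0.0191 to 0.043: array weights, the ACTB covariate, and without H9-UM replicate 1 or replicates 2 and 3. SCD 200832_s_at passed under these 4 and without H9-CM replicate 3, with adjusted p of 0.0167 to 0.0436, and with 1 probe set per gene (0.0445). None of the 7 calls in HSF1 was lost under the other settings tried, and their number was 7 to 9 when single arrays were left out.

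In H9, 3 probe sets were higher in CM than in UM and 2 lower, against 3.15% higher, 9.12% lower and 12.3% in either direction of all tested. ACSS2, which charges acetate, had 8.78, 8.64 and 8.66 in CM, against 8.16, 8.13 and 8.21 in UM. The groups were well apart and ACSS2 was 1.44-fold higher (0.53 ± 0.07, adjusted p = 0.00049). FASN had 10.16, 10.26 and 10.34 in CM and 10.11, 9.74 and 9.89 in UM (1.27-fold higher, 0.34 ± 0.09, adjusted p = 0.022). FADS2 (202218_s_at) had 9.71, 9.87 and 9.91 in CM, against 9.75, 9.47 and 9.43 in UM, which overlapped (0.28 ± 0.09, adjusted p = 0.0486). ME1 was lower here too: 204059_s_at had 9.19, 8.93 and 8.88 in CM and 9.49, 9.76 and 9.56 in UM (1.52-fold lower, -0.60 ± 0.09, adjusted p = 0.000871), and 204058_at differed by -0.69 (adjusted p = 0.00343). ELOVL6 (204256_at, -0.14 ± 0.06) and SCD (200832_s_at, 0.10 ± 0.06) did not pass (adjusted p = 0.162 and 0.271). ACLY (201128_s_at) differed by 0.09 ± 0.06, ACACA (212186_at) by -0.07 ± 0.06 and SREBF1 (202308_at) by -0.18 ± 0.10, and none passed (adjusted p = 0.372, 0.493 and 0.265). H9-UM replicates 2 and 3 had ACTB 3' minus 5' differences of 3.25 and 2.89, against 1.07 in replicate 1. Without both of them FASN (0.15, adjusted p = 0.528), FADS2 (0.09, adjusted p = 0.772) and ME1 204058_at (-0.39, adjusted p = 0.224) were not called, whereas ACSS2 and ME1 204059_s_at passed under all settings run. Without H9-UM replicate 1 the count was 8, with ACLY 210337_s_at (adjusted p = 0.0175), SCD 200831_s_at (0.0103) and SCD 211708_s_at (0.0384) added, all higher in CM. FADS2 lost its call under 16 of 21 settings, and FASN also lost its call without H9-UM replicate 2 (adjusted p = 0.0805) or 3 (0.0716), or H9-CM replicate 2 (0.0648) or 3 (0.0871).

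**Figure D4:**
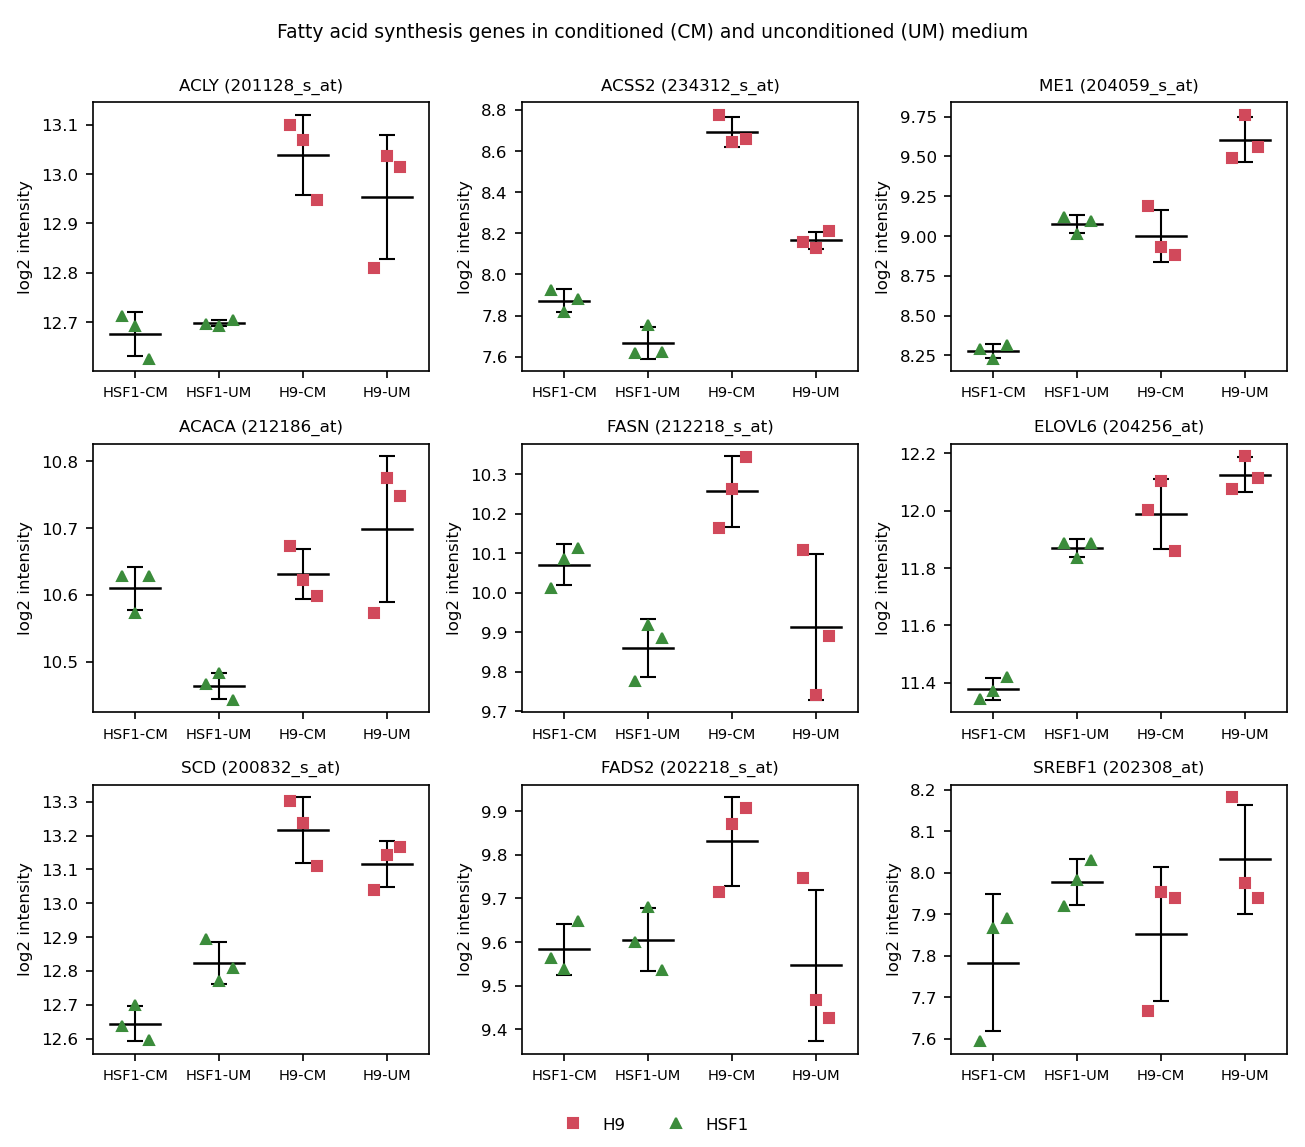
Log2 intensity (y axis, scaled per panel) of the brightest probe set of each of the 9 genes in HSF1 and H9 cells in conditioned (CM) or unconditioned (UM) medium (x axis). Points are biological replicates, horizontal lines are means and bars are SD (n = 3). ME1 lies lower in CM in both lines, ELOVL6 has its lowest group in HSF1-CM (11.34 to 11.42), and ACSS2 its highest in H9-CM (8.64 to 8.78).

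The response to CM differed between the lines for 5 of the 22 probe sets, all more negative in HSF1, against 2.19% more negative, 3.37% more positive and 5.56% in either direction of all tested. They were 3 of SCD and 2 of ELOVL6. The brightest probe set of SCD, 200832_s_at, was not called, with CM effects of -0.18 in HSF1 and 0.10 in H9. ELOVL6 227491_at was not called either (-0.17 and 0.15). For SCD 211708_s_at the CM effect was -0.74 in HSF1, against 0.21 in H9, a gap of -0.96 ± 0.15 (adjusted p = 0.00394). For ELOVL6 210868_s_at it was -0.67 in HSF1 and 0.11 in H9, a gap of -0.79 ± 0.14 (adjusted p = 0.00643). These 2 passed under all settings run. SCD 211162_x_at had a gap of -0.62 ± 0.13 (adjusted p = 0.018), SCD 200831_s_at -0.50 ± 0.11 (adjusted p = 0.0208) and ELOVL6 204256_at -0.36 ± 0.09 (adjusted p = 0.0344). ELOVL6 204256_at failed under 13 of 21 settings, SCD 200831_s_at under 5 and SCD 211162_x_at under 2. Without HSF1-UM replicate 1 the adjusted p was 0.0997 for ELOVL6 204256_at, 0.0718 for SCD 200831_s_at and 0.0638 for SCD 211162_x_at, and 2 of the 22 passed, against 9 without H9-UM replicate 1. ACSS2 (-0.32 ± 0.10, adjusted p = 0.088), FASN (-0.13 ± 0.12, adjusted p = 0.586) and ME1 204059_s_at (-0.19 ± 0.13, adjusted p = 0.42) did not pass, so the calls of ACSS2 and FASN in H9 do not show that the lines differ.

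**Figure D5:**
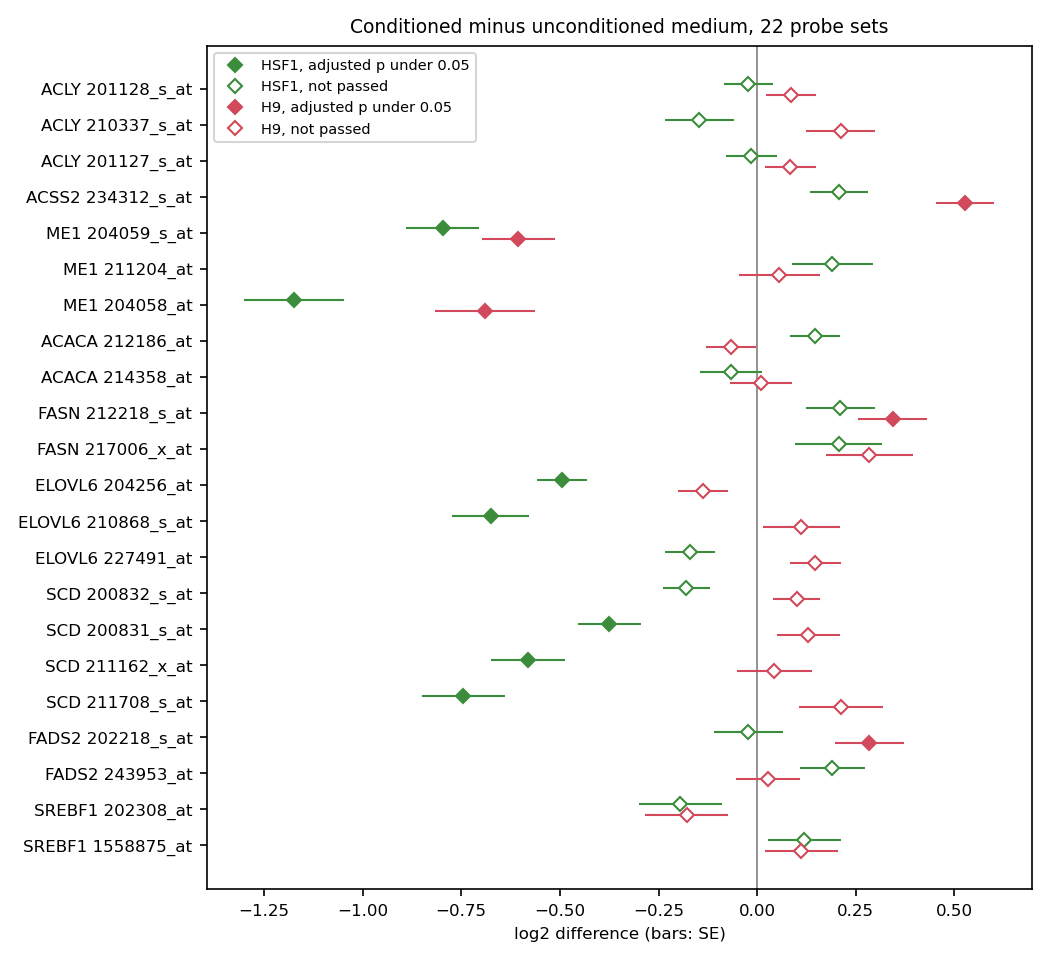
Log2 difference, CM minus UM (x axis), of the 22 probe sets (y axis) in HSF1 and H9, as the fitted value with its SE. Filled diamonds have an adjusted p under 0.05. ME1 204058_at lies at -1.17 in HSF1 and -0.69 in H9, the diamonds of 2 ELOVL6 and 3 SCD probe sets are filled in HSF1 and open in H9, and ACSS2 lies at 0.53 in H9.

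Set beside the culture comparison, which uses other arrays, CM did not follow a single direction. ME1 204059_s_at was -1.10 in FS against FF cells (not passing), -0.80 with CM in HSF1 and -0.60 in H9. FASN was -2.15 in FS against FF cells, 0.21 with CM in HSF1 (not passing) and 0.34 in H9. ELOVL6 204256_at was -1.24 between cultures, -0.49 with CM in HSF1 and -0.14 in H9 (not passing). ME1 211204_at, high on feeders, was 0.19 with CM in HSF1 and 0.06 in H9, neither passing (adjusted p = 0.258 and 0.74). The mean of the fibroblast markers was 7.20 to 7.31 in HSF1-CM, 7.27 to 7.33 in HSF1-UM, 7.43 to 7.47 in H9-CM and 7.38 to 7.46 in H9-UM.

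Between the lines in unconditioned medium, 13 of the 22 probe sets were lower in HSF1 than in H9 and 0 higher. Of all probe sets tested, 20.6% were called, 11.8% lower and 8.72% higher in HSF1. ACSS2 averaged 7.67 ± 0.08 in HSF1-UM and 8.17 ± 0.04 in H9-UM (SD, n = 3 each; -0.50 ± 0.07, adjusted p = 0.00039). ME1 204059_s_at averaged 9.08 ± 0.06 in HSF1-UM, against 9.60 ± 0.14 in H9-UM (-0.53 ± 0.09, adjusted p = 0.00132). SCD 200832_s_at averaged 12.82 ± 0.06 in HSF1-UM and 13.12 ± 0.07 in H9-UM (-0.29 ± 0.06, adjusted p = 0.00391). ACLY (-0.25), ELOVL6 204256_at (-0.26) and ACACA (-0.23) were lower as well (adjusted p = 0.0111, 0.0116 and 0.0183). The other 7 lower probe sets were ACLY 201127_s_at at -0.34, ME1 204058_at at -0.53, ACACA 214358_at at -0.45, ELOVL6 227491_at at -0.37, SCD 200831_s_at at -0.29, SCD 211162_x_at at -0.39 and FADS2 243953_at at -0.38. FASN (-0.05 ± 0.09), FADS2 202218_s_at (0.06 ± 0.09) and SREBF1 202308_at (-0.05 ± 0.10) did not pass (adjusted p = 0.736, 0.707 and 0.778). Without H9-UM replicates 2 and 3 the number was 8, and ACLY (-0.11, adjusted p = 0.438), ACACA (-0.11, 0.457), ELOVL6 204256_at (-0.20, 0.192), SCD 200832_s_at (-0.22, 0.136), ME1 204058_at (-0.23, 0.418) and FADS2 243953_at (-0.27, 0.192) were not called. ACACA also lost its call without H9-UM replicate 2 or 3, or HSF1-UM replicate 1, 2 or 3 (adjusted p = 0.0522 to 0.0721). Without HSF1-UM replicate 2, ELOVL6 204256_at (0.0535), SCD 200831_s_at (0.0596) and SCD 211162_x_at (0.0546) were lost, and SCD 200831_s_at also without replicate 3 (0.0788).

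Across the 8 groups, each gene's levels had an order whose neighbours often overlapped. For ACLY, ACSS2, ACACA, FASN, ELOVL6, SCD and FADS2 both FS groups were the lowest, overlapped with each other and lay apart from the next group. The share of all genes with such an order was not counted, so it is not shown to be particular to these genes. For FASN the means in order were 8.64 ± 0.85 in FS-MCT1i, 8.67 ± 0.68 in FS-DMSO, 9.86 ± 0.07 in HSF1-UM, 9.91 ± 0.19 in H9-UM, 10.07 ± 0.05 in HSF1-CM, 10.26 ± 0.09 in H9-CM, 10.44 ± 0.81 in FF-MCT1i and 10.82 ± 1.21 in FF-DMSO (SD, n = 3). Only the steps from FS-DMSO to HSF1-UM and from HSF1-CM to H9-CM had no overlap. For ME1 204059_s_at, HSF1-CM (8.28 ± 0.05) lay between FS-DMSO (8.20 ± 1.01) and FS-MCT1i (8.55 ± 1.02), and H9-UM was highest (9.60 ± 0.14). SREBF1 was lowest in FS-DMSO (7.42 ± 0.09), then FS-MCT1i (7.71 ± 0.09), which did not overlap, and highest in FF-MCT1i (8.43 ± 0.42). The 2 parts of the study were different experiments, so these orders are a description.

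Among the 9 genes, ACLY and SCD ran most nearly together over the 24 arrays (r = 0.97), and ME1 and FADS2 least (r = 0.37). Within the medium part FASN and FADS2 kept a high correlation (r = 0.82) while FASN and ME1 ran against each other (r = -0.41). Arrays of a line or group share their source, so these are descriptions. The 6 genes outside the list whose profile was most like the mean of the members, among 17876 and with r as the measure over 24 arrays, were LSS (r = 0.971), TMEM97 (0.971), ERG28 (0.968), DHCR7 (0.961), PRUNE2 (0.955) and INSIG1 (0.950). LSS and DHCR7 are enzymes of cholesterol synthesis, ERG28 is tied to the same pathway in yeast, and INSIG1 holds SREBP in the endoplasmic reticulum.

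Neighbouring pathways were counted with 1 probe set per gene, where 24.1% of the 17218 genes tested were lower and 15.2% higher in FS than in FF cells with DMSO, a total of 39.3%. The lists were chosen with earlier results known. The marker levels given above also differ between FS and FF arrays, and their part in these counts was not tested. Of 17 cholesterol synthesis genes tested, 16 were lower and 0 higher, led by FDPS (-1.44), LSS (-1.79) and HMGCS1 (-1.61), with adjusted p of 0.00175 to 0.00405. Among 23 regulators of lipid synthesis 9 were lower and 1 higher, with INSIG1 at -2.72 (adjusted p = 0.00154), NR1H3, the liver X receptor alpha, at -0.83 and the factor SP1 at -1.08. Of 24 other enzymes of fatty acid synthesis and elongation, 8 were lower and 3 higher. AACS, which activates acetoacetate, fell by 1.46 (adjusted p = 0.00477), and the mitochondrial synthesis enzyme HSD17B8 was higher by 1.41 (adjusted p = 0.00461). Of 12 genes of NADPH supply, 4 were lower, with the pentose phosphate enzyme PGD at -0.75 and the transhydrogenase NNT at -0.98 among them, and 1 was higher, ALDH1L1 at 0.62.

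The lists of lipid use are read against the same 24.1% of genes lower and 15.2% higher, and no list was tested as a set. Of 18 glycerolipid synthesis and storage genes, 7 were lower and 2 higher in FS cells, with the lipase PNPLA3 at -1.79 (adjusted p = 0.0017) and the lipid droplet coat PLIN2 at 1.26 (adjusted p = 0.0128). Of 17 genes of fatty acid uptake, binding and activation, 8 were lower and 2 higher. Among them were the binding protein FABP7 at -3.40 (adjusted p = 0.000651), the acyl-CoA synthetase ACSL4 at -2.19 and lipoprotein lipase, LPL, at -1.44. Of 19 fatty acid oxidation genes, 7 were lower and 2 higher. CPT1A, which admits acyl chains to mitochondria, was higher by 2.04 (adjusted p = 0.00105), and its brain form CPT1C lower at -1.59 (adjusted p = 0.000702).

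With CM in HSF1, 8.37% of the 16572 genes tested were lower, 7.19% higher and 15.6% either. There, 1 cholesterol synthesis gene of 17 was lower, SC5D at -0.48 (adjusted p = 0.00095), and 0 were higher. Of 12 NADPH genes 2 were lower, among them the folate enzyme ALDH1L2 at -1.09 (adjusted p = 0.000287) and IDH2 at -0.26. Of 17 uptake genes 4 were lower and 1 higher, with the transporter SLC27A2 at -0.95 (adjusted p = 5.33e-05). In H9, 10.7% of genes were lower, 2.57% higher and 13.3% either, and 7 of the 17 cholesterol synthesis genes were higher in CM and 0 lower. HSD17B7 rose by 0.35, LSS by 0.25 and MSMO1 by 0.25 (adjusted p = 0.00783, 0.0124 and 0.0225). All list values of H9, and the difference between the lines below, include H9-UM replicates 2 and 3. The ACTB 3' minus 5' differences of these 2 arrays were 3.25 and 2.89, against 1.07 in replicate 1. The lists were not refitted without these arrays. Of 12 NADPH genes 4 were lower in H9 and 0 higher, IDH2 at -0.39 (adjusted p = 0.00559) among them, and of 17 uptake genes 5 were lower and 1 higher, with FABP7 at -0.79 (adjusted p = 0.00023). Of 24 other synthesis and elongation enzymes 5 were lower in H9 and 0 in HSF1, ME3, a mitochondrial malic enzyme, at -0.56 (adjusted p = 0.00783) among them. The phosphatidate phosphatase LPIN1 rose in both lines, by 0.38 in HSF1 and 0.50 in H9 (adjusted p = 0.00691 and 0.0016). The difference between the lines in CM response was tested for these lists, and 4 of the 17 cholesterol genes passed, all more negative in HSF1, where 1.54% of all genes were so called, 4.21% were more positive and 5.74% passed in all. Of the 24 other enzymes of fatty acid synthesis and elongation, 1 passed, more positive in HSF1.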

How the data were processed

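Total RNA, isolated with a column kit and labelled with biotin, was hybridised to 24 arrays, per the labels' protocols. The deposited log2 values, made by the authors with RMA per the submitters' processing notes, cover 54675 probe sets and were used as given. Array medians were 6.09 to 6.35, so the arrays do not share 1 distribution; for the build and tool versions the sources used here give nothing. Gene names came from the array platform's annotation, in which 41097 name 1 gene, 1801 several and 11777 none. Each part of the study was fitted on its own 12 arrays with limma 3.58.1 in R 4.3.3 (lmFit and eBayes with trend, group means, line as a block in the inhibitor part), over probe sets with log2 over 5 on 3 or more arrays, with Benjamini-Hochberg adjustment and a threshold of 0.05. The fit was tested on simulated data. Each gene's brightest probe set was the one with the highest mean. Members, gene lists and tests were chosen with earlier results of these data known. All probe sets of the members were named, up to 3 genes per list by the smallest p, and the 6 genes most like the members' mean. Promoter windows came from RefSeq. Array number limits the precision, and the labels do not say that the inhibitor part's lines were cultured more than once. The numbers of the medium part did not pair its samples: over 18 pairs the correlation of deviations was -0.33 to 0.34, and 7 were over 0.1. In 1 pair of groups, H9-CM and HSF1-CM, all 3 same-numbered pairs were over 0.1 (0.15 to 0.34), and these groups meet only in the difference of the medium effects; the replicate block is given in the closing section. The inhibitor's target gene is not analysed here. Alternatives are given in the closing section.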

Additional observations from a re-analysis of the deposited data

Results flagged for a closer look

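For 5 probe sets the response to conditioned medium differed between the HSF1 and H9 lines by a test of the difference itself (limma interaction, HSF1 minus H9, log2 scale). They were ELOVL6 204256_at (-0.36), ELOVL6 210868_s_at (-0.79), SCD 200831_s_at (-0.50), SCD 211162_x_at (-0.62) and SCD 211708_s_at (-0.96), each more negative in HSF1. ELOVL6 210868_s_at and SCD 211708_s_at kept that call under all 21 other settings, and ELOVL6 204256_at lost it under 13. Groups of 3 arrays were too small to search for outlying samples by the gap to the nearest value.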

How the results depend on the processing

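Counts of the 22 probe sets called, given per comparison below, depended on how genes were represented, on array quality terms and on single lines. They are not set against the share of all probe sets called under each setting. With 1 probe set per gene, and with the mean of a gene's probe sets, 8 and 7 of 9 genes passed for FS against FF cells with DMSO, 7 and 5 under the inhibitor, 3 and 4 for CM in HSF1, 1 and 2 for the difference in CM response, 6 and 6 for HSF1 against H9 in UM, and 3 with the mean for CM in H9. These count genes, not probe sets. With the mean, 6 genes were lower and 1 higher with DMSO, and 4 lower and 1 higher under the inhibitor: ME1 turned sign, to 0.77 (adjusted p = 0.0245) and 0.96 (adjusted p = 0.0108), where its probe sets oppose each other. With the ACTB difference as covariate the count was 5 for FS against FF cells with DMSO, 7 under the inhibitor and 3 for CM in H9. Quantile normalisation left 9 under the inhibitor. Array weights gave 3 for the inhibitor in FS cells, 2 in FF cells, 6 in the mean, 12 for CM in HSF1 and 11 for the difference in CM response, and turned 2 signs: FASN 212218_s_at in FS cells became 0.78 (adjusted p = 0.037) and ACACA 212186_at in the mean 0.26 (adjusted p = 0.0202). Their estimate did not converge. Without the FS arrays of HSF1 the inhibitor in FF cells gave 1, ACACA 214358_at (adjusted p = 0.0176). Without H9-UM replicates 2 and 3 the count was 2 for CM in H9, 3 for the difference in CM response and 8 for the lines in UM. Leaving out 1 line or array gave 6 to 18 for FS against FF cells with DMSO, 8 to 15 under the inhibitor, 3 to 8 for CM in H9, 7 to 9 for CM in HSF1, 2 to 9 for the difference in CM response and 9 to 14 for the lines in UM. The replicate block in the medium part gave 4 for CM in H9, 7 for CM in HSF1, 5 for the difference and 13 for the lines; no replicate block gave 15 and 10 for FS against FF cells with DMSO and under the inhibitor. The share of higher calls over all probe sets was 38.5% as reported, 44.5% after quantile normalisation and 30.2% after shifting arrays to a common median. The fit without the FF-DMSO array of H9 was chosen after seeing the data. Other causes were not tested.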

Other observations

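Values of 3 probe sets annotated to both FADS1, a fatty acid desaturase, and the microRNA gene MIR1908 are given here without being assigned to either. 208962_s_at averaged 8.90 ± 0.50 in FS-MCT1i, 8.87 ± 0.63 in FS-DMSO, 10.28 ± 0.26 in FF-MCT1i and 10.44 ± 0.57 in FF-DMSO (log2 intensity, SD, n = 3 each). 208964_s_at averaged 9.66 ± 0.43 in FS-MCT1i, 9.75 ± 0.34 in FS-DMSO, 10.79 ± 0.12 in FF-MCT1i and 10.99 ± 0.52 in FF-DMSO. 208963_x_at averaged 9.06 ± 0.38, 9.004 ± 0.58, 10.25 ± 0.08 and 10.51 ± 0.33 in the same order of groups. For each of the 3, all 6 FS arrays lay under all 6 FF arrays of the inhibitor part. How often this held over all probe sets was not counted. In the medium part, 208962_s_at averaged 10.34 ± 0.06 in HSF1-CM and 10.54 ± 0.01 in HSF1-UM, and 10.35 ± 0.06 in H9-CM and 10.34 ± 0.15 in H9-UM. These probe sets were not in the fit, which used probe sets naming a single gene.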
